A study of Mus musculus with 20 samples.

Results

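The 8 heavy chain constant genes Ighm, Ighd, Ighg3, Ighg1, Ighg2b, Ighg2c, Ighe and Igha were followed in single-cell RNA-seq libraries from spleens and lymph nodes of transgenic mice. They are the 8 genes of this locus named for the work, out of 31053 genes in the count tables. Their UMIs (unique molecular identifiers, 1 per captured RNA molecule) were counted in each library, and each cell was given the isotype of its leading heavy chain gene. A cell entered the B gate with at least 3 UMIs of Cd79a and Cd79b, none of Cd3d, Cd3e and Cd3g and fewer than 20 of Jchain. A cell with at least 20 Jchain UMIs and at least 2 of Derl3 and Sdc1 entered the plasma gate. Of 84781 kept cells, 31130 were B cells (194 to 5333 per library) and 2599 were plasma cells (1 to 594 per library).

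The study compared mice with lymphoid-driven PRMT5, an arginine methyltransferase, TCL1, a leukemia oncogene, or both. The 20 libraries came from 13 mice. Spleens were taken from 5 Eµ-PRMT5 mice, from 4 Eµ-TCL1 mice and from 4 that carried both (Eµ-PRMT5/TCL1), and lymph nodes from 3 and 4 of the latter genotypes, called PRMT5, TCL1 and PRMT5/TCL1 from here on. The labelled strain was C57BL/6N for all mice, while the methods give a C57BL/6J background for the Eµ-TCL1 parents. Eµ-PRMT5 mice carried human PRMT5 cDNA behind a VH promoter and the IgH-µ enhancer, and the double transgenic mice were their offspring with Eµ-TCL1 mice. Several founders gave the Eµ-PRMT5 mice, and the third spleen of that group is labelled with its founder number. The first PRMT5/TCL1 spleen and the second PRMT5/TCL1 node came from the same mouse, the only one whose number ends in RT. What this ending marks was not checked, and both libraries were used like the others. Tissue was taken at early removal criteria, from mice of both sexes, without drug treatment, and cells were not sorted by type. No wild-type mouse was among these libraries, so every group carries at least 1 transgene driven in B-lineage cells. The human transgenes are not rows of the mouse tables, and the genotype labels were not checked against expression.

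The constant genes lie in 1 row behind the variable, diversity and joining segments, and each encodes the effector end of a class of antibody. A naive B cell transcribes Ighm and Ighd from 1 long primary RNA and carries IgM and IgD with the same variable region. Class switch recombination deletes Ighm, Ighd and the other DNA in front of a downstream gene, so that a switched cell makes IgG, IgE or IgA. Each gene can end in a membrane form, the receptor, or a secreted form, the antibody, and plasma cells make mostly the latter. A switch promoter in front of each downstream gene can also give a germline transcript that precedes switching and encodes no antibody.

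In the annotation of build GRCm38 (GENCODE M21), all 8 genes lie on the minus strand of chromosome 12. Ighm (ENSMUSG00000076617) spans chr12:113418558-113422730 and Ighd (ENSMUSG00000104213) begins 6.41 kb downstream of its start, at chr12:113406604-113416324. Ighg3 (ENSMUSG00000076615, chr12:113356224-113361232) begins 61.5 kb from the start of Ighm. Ighg1 (ENSMUSG00000076614, chr12:113325240-113330523) begins at 92.2 kb and Ighg2b (ENSMUSG00000076613, chr12:113302965-113307933) at 115 kb. Ighg2c (ENSMUSG00000076612, chr12:113285325-113288932), which C57BL/6 mice carry in the place of Ighg2a, begins at 134 kb. Ighe (ENSMUSG00000087642, chr12:113269260-113273248) begins at 149.5 kb and Igha (ENSMUSG00000095079, chr12:113254830-113260236), the last of the row, at 162 kb.

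The reads of a 3′ library fall near the ends of these transcripts, so the last 30 coding bases of each secreted form are given, from the GENCODE transcripts, 5′ to 3′ with the last codon but 1 before the stop in capitals.
Ighm: atcatgtctgacacaggcggcaccTGCtat
Ighd: tccaggagacctgatggtcctgccCTTgcc
Ighg3: cagaagaacctgtctcgctcccctGGTaaa
Ighg1: gagaagagcctctcccactctcctGGTaaa
Ighg2b: aagaagaccatctcccggtctccgGGTaaa
Ighg2c: actaagaccatctcccggtctctgGGTaaa
Ighe: agccttggtaacacctccctccatCCCtcc
Igha: atcatgtcagagggagatggcatcTGCtac
Ighm and Igha share the TGC codon there, which is the tailpiece cysteine that joins chains into polymers held by the J chain. The 4 IgG genes share GGT in that place and the lysine codon after it. Ighg2b and Ighg2c had the most alike coding sequences, with 86.3% identity. Their whole transcripts shared 70 overlapping windows of 50 bases, and no window of that length was shared by any pair with a gene outside the IgG group. Reads of Ighg2b and Ighg2c are therefore the least certain to be kept apart. UMIs of secreted, membrane and germline transcripts are summed in each gene and could not be told apart. The annotated membrane forms of Ighe and Ighg2c end at the stop codon, and whether reads of these forms were missed was not tested.

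Total UMIs per library ran from 9348094 to 72440894, and the median per B cell from 4266 to 16741. Among B-gate cells the 7 B-cell markers together stood at 4011 to 6897 CPM (UMIs per 1000000 UMIs of the gated cells) in 19 libraries, and none of the 7 was at 0 in any library. The fourth PRMT5 spleen stood below that range, with Cd79a at 452 and Cd79b at 430 CPM. Neutrophil markers in the B gate ran from 0 to 3841 CPM, highest in the third PRMT5/TCL1 node. Over 190 pairs of libraries 4618 cell barcodes were shared, against 4595 that random draws from the barcode list give. In T cells, which should lack the constant genes, 6.67 to 32.2% of cells held an Ighm UMI at a median depth of 2867 to 9578 UMIs. Of 25407 T cells, 351 had an isotype call, and 348 of these were IgM. Such a call needs at least 3 heavy chain UMIs and a single leading gene. Among barcodes with at most 100 UMIs, which mostly hold free RNA, Ighm stood at 632 to 5446 CPM. The 8 genes together took a larger share of UMIs there than in B cells in 15 of 20 libraries (0.563% against 0.159% in the third TCL1 node). How much of the B-cell values this RNA made up was not tested.

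Ighm led most B cells with a call in every library. It was the leading gene of 25100 of the 25481 B cells with a call, against 283 for Ighd and 98 for the 6 switched genes together. The 5 PRMT5 spleens held Ighm at 622, 1079, 1935, 829.2 and 1109 CPM. The TCL1 spleens stood at 2353, 793, 1192 and 1431 CPM and the PRMT5/TCL1 spleens at 2367, 1722, 800 and 1704 CPM. The 3 groups of spleens overlapped throughout. The TCL1 nodes held 1670, 2124 and 1551 CPM and the PRMT5/TCL1 nodes 1027, 1473, 833 and 3343 CPM, again with overlap. An Ighm UMI was found in 79.5 to 100% of B cells by library. The share was 97.4% in the third PRMT5/TCL1 spleen at 800 CPM and 98.7% in the first at 2367 CPM, so that these differed more in Ighm per cell than in the share of cells with it. All 8 genes together made up 0.0844 to 0.352% of B-cell UMIs.

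**Figure D1:**
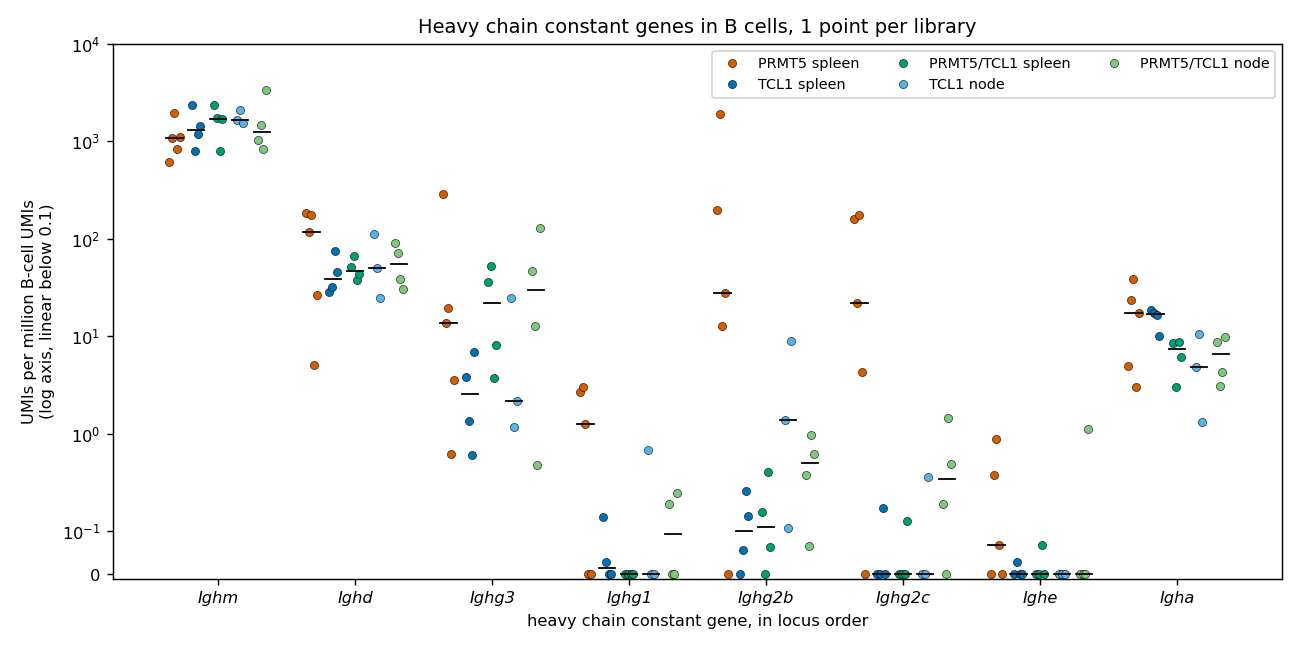
CPM in B cells (log axis, linear below 0.1) of each heavy chain constant gene in locus order, with 1 point per library, coloured by group. Ighm lies between 622 and 3343 in all 20 libraries, Ighg2b reaches 1925 in PRMT5 spleens and 8.85 in the other libraries, Ighg2c 178 and 1.44, and Ighg3 spreads from 0.481 to 287.

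Ighd was present in every library and varied widely among the PRMT5 spleens. In the PRMT5 spleens it stood at 184, 118, 177, 5.09 and 26.4 CPM, so that 3 spleens lay above every other spleen and the fourth lay below every other library. The TCL1 spleens held 28.7, 32.3, 75.1 and 46.0 CPM and the PRMT5/TCL1 spleens 50.8, 66.7, 38.3 and 43.6 CPM, and these groups overlapped. The nodes held 112, 50.4 and 24.8 CPM with TCL1 and 90.7, 70.9, 38.9 and 30.3 CPM with both transgenes. Set against Ighm from the same cells, the first PRMT5 spleen held 29.5 Ighd UMIs per 100 Ighm UMIs, the second 10.95, the third 9.14, the fourth 0.613 and the fifth 2.38. The mean was 10.5 ± 11.5 (SD, n = 5) there, 3.70 ± 2.11 (n = 4) in TCL1 spleens and 3.34 ± 1.21 (n = 4) in PRMT5/TCL1 spleens. The spread within the PRMT5 group was larger than the differences between the groups.

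Of the B cells with an Ighd UMI, 85.5 to 100% by library also held Ighm. Among B cells with at least 10 UMIs of the pair, none in any library had Ighd alone. Cells with both made up 79.3, 65.2, 72, 8.04 and 16.3% in the 5 PRMT5 spleens, 22.4 to 46.0% in TCL1 spleens, 27.3 to 46.2% in PRMT5/TCL1 spleens and 13.8 to 66.3% in the nodes. Cells in which Ighd led rested on few molecules, with a median of 2 to 5 Ighd UMIs by library. IgD was the call of 15.9% of the B cells with a call in the first PRMT5 spleen (105 of 662, 95% Wilson interval 13.3 to 18.8%). Of the 1297 B cells there, 566 had fewer than 3 heavy chain UMIs and 69 were tied. Over all libraries 25481 of 31130 B cells had a call. The next spleens of this group had 2.86%, 3.18%, 0 of 765 and 0.269%, where 0 of 765 allows a share of up to 0.392%. Wilson intervals and such limits cover counting error only. Every other spleen had between 0 and 1.03%. The mean IgD share was 4.43% ± 6.55 (SD, n = 5) in PRMT5 against 0.475% ± 0.460 (n = 4) in TCL1 spleens, a difference of 3.96 percentage points that did not pass an exact two-sided permutation test (p = 0.190, adjusted p = 0.317 over 10 tests in B cells). It was 1.10 points without the first PRMT5 spleen and 0.989 points when the leading gene had to hold over 80% of the heavy chain UMIs.

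The variable genes of these cells differed between libraries. In the first PRMT5 spleen the leading Ighv gene of IgM cells, Ighv6-6, was found in 27 of 380 cells with 1 assigned (7.11%), among 77 Ighv genes. Its 71 IgD cells with an Ighv gene spread over 45 of them. In the second spleen Ighv7-3 was found in 148 of 201 IgM cells (73.6%), and in the third Ighv6-3 in 422 of 979 (43.1%). A single Ighv gene was found in all such IgM cells of the fourth spleen (Ighv12-3) and in 84.4% of those of the fifth (Ighv1-55), the 2 spleens of the group with the least Ighd per Ighm. In the TCL1-bearing libraries the leading gene took 47.4% of IgM cells in the third TCL1 spleen and 78.3 to 99.8% in the others. In the second PRMT5/TCL1 node 37 of 40 IgD cells carried Ighv8-2, which was also the leading gene of its IgM cells.

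Fcer2a, Cr2 and Zfp318 were detected in both the IgD and the IgM cells of the library with the most frequent IgD calls. In the IgD cells of the first PRMT5 spleen, Fcer2a (CD23, the low-affinity IgE receptor) stood at 167 CPM, Cr2 (CD21) at 89.8 and Zfp318, which is needed for Ighd transcripts to read past Ighm, at 89.8. Its IgM cells held Fcer2a at 160, Cr2 at 98.2 and Zfp318 at 62.2 CPM. None of these genes was called in a test over all genes, so they were named outside the rule given below. Cr2 was chosen with values known.

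Across the 20 libraries, the 3 genes outside the family whose log2(CPM + 1) in B cells was most like that of Ighd were Tcf25 (Pearson r = 0.917), Arap2 (0.912) and Fam208a (0.910), among 5674 genes with a mean of at least 20 CPM. Those most like Ighm were Edem2 (0.758), Nucb1 (0.642) and AU020206 (0.625). Ighm and Ighd themselves had r = 0.015. Of pairs picked apart from that ranking, Zfp318 with Ighd had 0.839, Fcer2a with Ighd 0.637 and Jchain with Ighm 0.566. These values describe libraries that share mice in 7 cases and differ in depth.

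Switched B cells were found mainly in 3 PRMT5 spleens. The first held 36 of 662 called B cells (5.44%, Wilson interval 3.95 to 7.44%), the second 21 of 245 (8.57%, 5.67 to 12.8%) and the third 24 of 1162 (2.07%, 1.39 to 3.06%). The fourth held 3 and the fifth 1. In the 15 libraries that carry TCL1, 0 to 4 cells each were switched, 13 in all and at most 0.266% of a library. The mean share was 3.35% in PRMT5 spleens, 0.01995% in TCL1 spleens, 0.0266% in PRMT5/TCL1 spleens, 0.0610% in TCL1 nodes and 0.142% in PRMT5/TCL1 nodes. Leaving out 1 library, it was 2.04% in PRMT5 spleens without the second and up to 4.12% otherwise, 0% in TCL1 spleens without the second, 0.00749% in PRMT5/TCL1 spleens without the third, and 0.0335% in TCL1 nodes without the second. With every cell thinned to 1000 UMIs, when 33 to 1426 B cells per library had a call, it was 7.39% in PRMT5 and 1.13% in PRMT5/TCL1 spleens, the latter mainly from the second spleen, where IgG3 was the call of 3.45% of 87 cells. No test was made of the switched share. The fourth PRMT5 spleen (3 of 765, 0.392%) and the fifth (1 of 372, 0.269%) lay just above the fourth PRMT5/TCL1 node (4 of 1505, 0.266%). So few cells do not set these libraries apart.

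**Figure D2:**
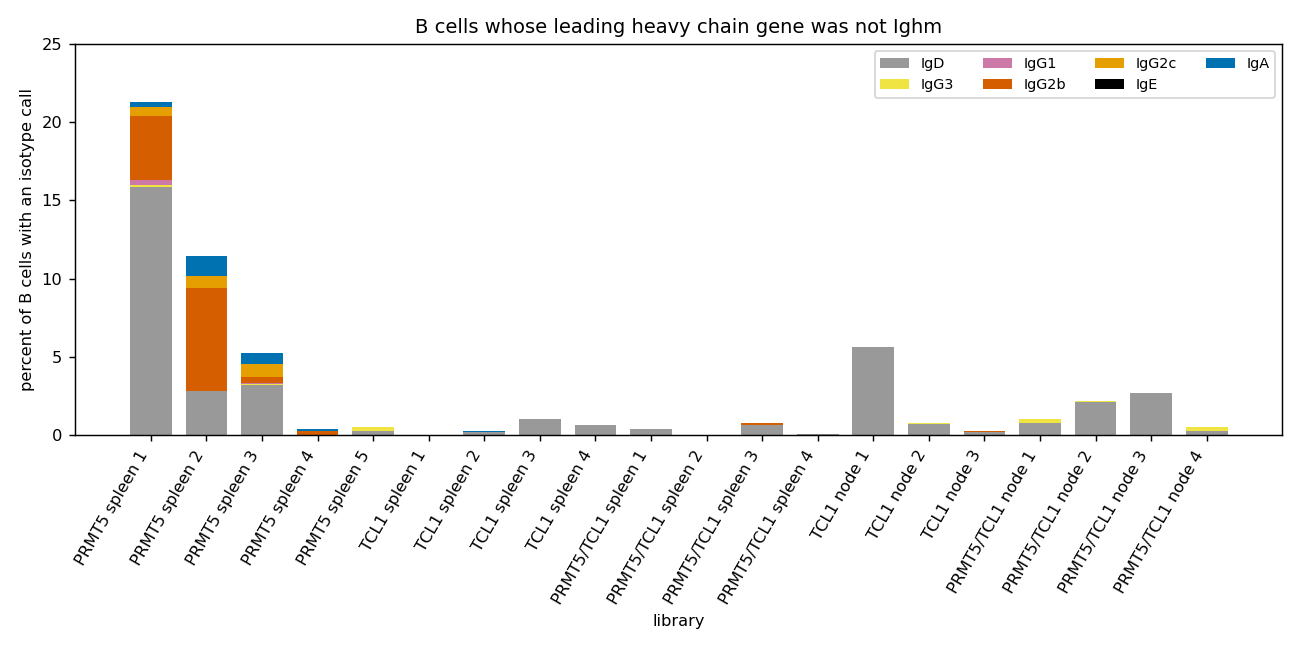
Percent of B cells with an isotype call whose leading gene was Ighd or a switched gene, for each library. The first PRMT5 spleen reaches 15.9% IgD and 5.44% switched, the second 8.57% switched, and the fourth PRMT5 spleen has 0.392% switched and no IgD cell.

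IgG2b, a complement-fixing IgG class, was the most frequent switched isotype, with 49 of the 85 switched B cells of the PRMT5 group. Ighg2b stood at 200, 1925, 12.8, 27.8 and 0 CPM in the 5 PRMT5 spleens, at 0 to 0.261 CPM in TCL1 spleens and at 0 to 0.403 CPM in PRMT5/TCL1 spleens. The nodes held 1.37, 0.107 and 8.85 CPM with TCL1, the last with 97.9% of its 146 UMIs in 1 cell, and 0.376, 0.0651, 0.961 and 0.614 CPM with both. Thus 4 of 5 PRMT5 spleens lay above all other spleens and the fifth was at 0, which allows up to 0.891 CPM there. In the fourth spleen, single cells held 67.3 and 32.4% of the 404 UMIs. The count in the second spleen came from few cells, since 99.4% of its 5068 UMIs lay in 16 cells and 25.4% in 1. In the first spleen, 71.6% of 1424 UMIs lay in 1 cell, and its 27 IgG2b cells held a median of 4 Ighg2b UMIs. The barcodes of at most 100 UMIs in that library held Ighg2b at 303 CPM. Of 22 IgG2b cells with an Ighv gene in the first spleen, 11 carried Ighv6-6 (50%), the same gene that led its IgM cells. In the second, 8 of 14 carried Ighv5-9-1, which differs from the Ighv7-3 of its IgM cells.

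IgG2c, the class tied to interferon-γ and viral responses in C57BL/6 mice, was the call of 16 B cells in the PRMT5 group, 10 of them in the third spleen. These 10 held a median of 3 Ighg2c UMIs, 90% of them also held Ighm, and Ighg2c exceeded 80% of the heavy chain UMIs in 30%, while the barcodes of at most 100 UMIs in that library held Ighg2c at 98.98 CPM. Ighg2c stood at 158, 22.04, 178, 4.33 and 0 CPM in these spleens. Outside them it was 0.174 CPM in the third TCL1 spleen and 0.128 in the fourth PRMT5/TCL1 spleen, and 0 in the other 6 spleens. The nodes held 0, 0 and 0.364 CPM with TCL1 and 0.188, 0, 1.44 and 0.491 CPM with both. A single cell held 82.5% of the 1128 UMIs in the first spleen, and 1 held 53.5% of the 1402 UMIs in the third. In the third spleen 165 of the B cells not called IgG2c (11.3%) held an Ighg2c UMI, against 0.302% of its T cells.

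Ighg3, the gene of the T-independent IgG class, was found in all 20 libraries, as were Ighm, Ighd and Igha, and was the call of 11 B cells. It stood at 287, 13.7, 19.6, 0.619 and 3.56 CPM in PRMT5 spleens, at 3.80, 1.34, 0.609 and 6.86 in TCL1 spleens and at 35.8, 53.0, 3.76 and 8.11 in PRMT5/TCL1 spleens. In the nodes it was 24.7, 1.18 and 2.18 CPM with TCL1 and 46.8, 12.8, 0.481 and 130 CPM with both. The groups overlapped in both tissues. The value of the first PRMT5 spleen rested on 1 cell, which held 98.5% of its 2045 Ighg3 UMIs.

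**Figure D3:**
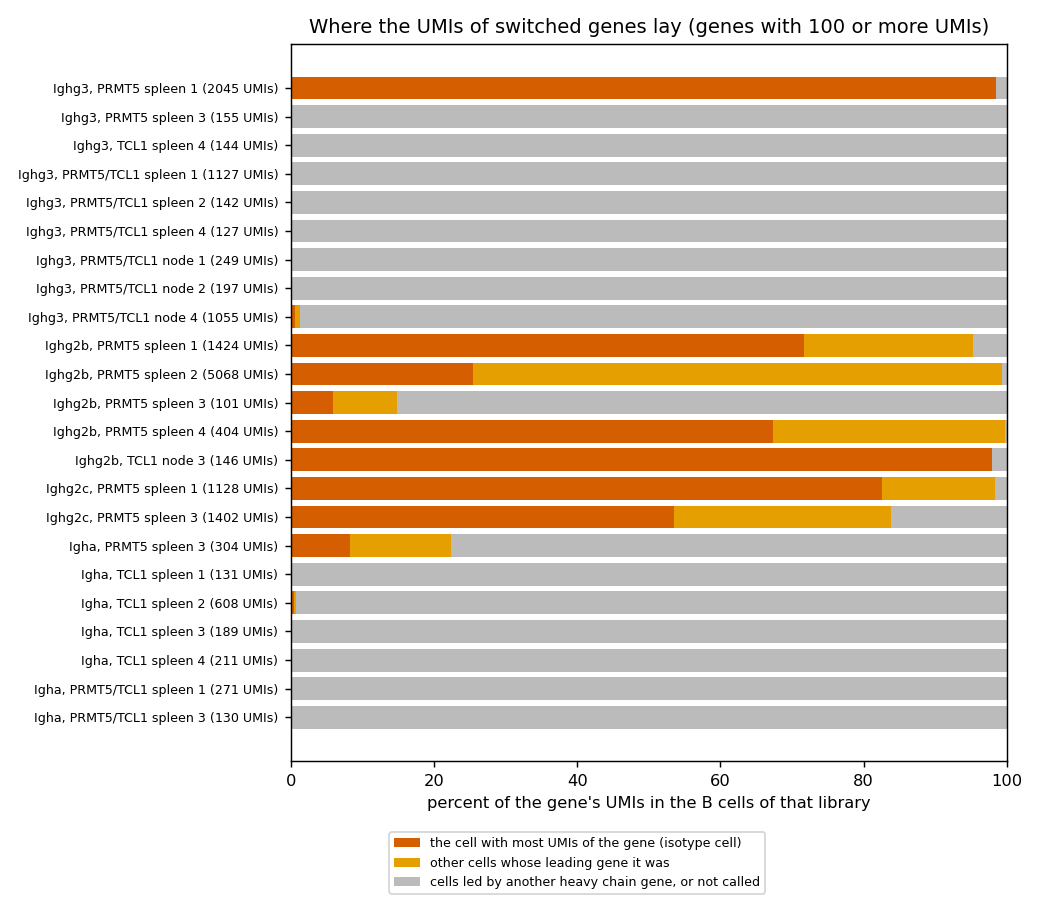
For each gene and library with at least 100 UMIs of a switched gene in the B gate, the percent of those UMIs in the top cell, in other cells called by that gene and in all other cells. A single cell holds 98.5% of Ighg3 in the first PRMT5 spleen, while 16 cells hold 99.4% of Ighg2b in the second.

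Cells with at least 100 UMIs of 1 switched gene were also counted. The B gate held 18 of them, 17 in PRMT5 spleens and 1 in the third TCL1 node. They held 112 to 2014 UMIs of that gene, and 11 of them had no Ighm UMI. Genes of plasma cells were detected in them, Xbp1 in all 18, Derl3 in 16, Sdc1 in 12 and Mzb1 at a median of 15 UMIs (1 to 153), although each lay below the limit of 20 Jchain UMIs of the plasma gate. Xbp1 was also present in T cells, at 68.4 to 265 CPM, while Derl3 was at most 3.47 CPM there. Whether these 18 are plasma cells was not tested. The levels of switched genes in the PRMT5 spleens thus rested in part on few cells, while the isotype calls count each such cell once.

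A test over all genes was made on B-cell UMIs summed per library, with edgeR's quasi-likelihood test and Benjamini-Hochberg adjustment. Between PRMT5 and TCL1 spleens it called 3 of 11550 genes (0.026%), which were Eps8l1, Aig1 and Lta, and 1950 had an unadjusted p under 0.05. No member was among the 3. Ighg2c averaged 72.4 CPM ± 87.8 (SD, n = 5) in PRMT5 and 0.0435 ± 0.0871 (n = 4) in TCL1 spleens (adjusted p = 0.0819). In summed counts, 2651 UMIs in PRMT5 stood against 2 in TCL1 spleens, a ratio of 2785 per B-gate UMI with an exact counting interval of 770 to 23011. That interval takes no account of the spread between mice or of UMIs that share a cell. Single cells held 931 and 750 of the 2651 UMIs. Ighg2b averaged 433 CPM ± 838 against 0.115 ± 0.114 (log2 difference 11.60, SE 2.33, adjusted p = 0.0867). For Ighg3 the log2 difference was 4.20 (SE 1.52, adjusted p = 0.195), and it was 1.38 without the first PRMT5 spleen. Ighd (0.96, SE 0.68, adjusted p = 0.498), Ighm (-0.48, SE 0.39, adjusted p = 0.561) and Igha (-0.02, adjusted p = 0.993) differed by less than the spread between libraries. Without the fifth PRMT5 spleen, which lacked both genes, 68 of 11585 genes were called and Ighg2c (adjusted p = 0.0113) and Ighg2b (adjusted p = 0.0222) were among them. Both genes passed the filter on low counts only through PRMT5 spleens, and the library left out was that without them. These calls are therefore no test of a group difference. Without any 1 of the other 4 spleens of the group these 2 genes did not pass the filter on low counts, and 309 genes were called without the fourth. Ighg1 and Ighe did not pass that filter in this comparison with all libraries.

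The calls for the IgG genes depended on the tool. DESeq2 called 666 genes (5.77%) in this comparison and Ighg2b (adjusted p = 1.17e-07), Ighg2c (adjusted p = 0.00138) and Ighg3 (adjusted p = 0.0310) were among them. For PRMT5/TCL1 against PRMT5 spleens, edgeR called 0 of 11550 genes (0%), with 1016 at an unadjusted p under 0.05, and DESeq2 called 101 (0.874%), Ighg2b (adjusted p = 2.18e-06) and Ighg2c (adjusted p = 0.00308) included. In edgeR, Ighg2b had a log2 difference of -10.98 (SE 2.27, adjusted p = 0.327) and Ighg2c an adjusted p of 0.227, which was 0.0357 without the fifth PRMT5 spleen. Both comparisons share the 5 PRMT5 spleens. Ighg2b and Ighg2c passed the filter on low counts only through these spleens, with 8 and 2 UMIs in all TCL1 and 12 and 2 in all PRMT5/TCL1 spleens. A single cell held 98.5% of the Ighg3 UMIs of the first PRMT5 spleen. These calls therefore give no support for a difference between groups. Between PRMT5/TCL1 and PRMT5 spleens Ighg3 had a log2 difference of -1.27, which turned to 1.56 without the first PRMT5 spleen. Ighd (-0.92), Ighm (0.56) and Igha (-1.26, adjusted p = 0.565) were not called.

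IgM shares were compared over libraries. The mean was 92.2% ± 8.80 (SD, n = 5) in PRMT5 spleens, where single libraries ran 78.7, 88.6, 94.8, 99.6 and 99.5%. It was 99.5% ± 0.446 (n = 4) in TCL1 and 99.7% ± 0.344 (n = 4) in PRMT5/TCL1 spleens. PRMT5 was lower than TCL1 by 7.29 percentage points on average (exact permutation p = 0.143, adjusted p = 0.317) and by 3.91 points without the first PRMT5 spleen (differences of -7.29 and -3.91). Thinned to 1000 UMIs the difference was -12.93 points. PRMT5/TCL1 was higher than PRMT5 by 7.46 points (exact permutation p = 0.0794, adjusted p = 0.265), by 4.08 without the first PRMT5 spleen and by 17.6 when all B-gate cells, called or not, were the denominator. With a leading gene over 80% these differences were -3.89 and 3.85 points. Neither passed, and the fourth and the fifth PRMT5 spleen lay within the range of the other groups.

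Adding PRMT5 to TCL1 left the isotype makeup of spleen B cells without a detected difference. IgM differed by 0.177 percentage points (exact permutation p = 0.571, adjusted p = 0.714, smallest possible p 0.0286), and IgD by -0.184 points with the same p values. Over all B-gate cells IgM differed by 8.25 points, and thinned to 1000 UMIs by -0.788. In edgeR, 1 of 11550 genes was called between these spleens (0.00866%), Eps8l1, and 530 had an unadjusted p under 0.05. The 4 TCL1 spleens held Igha at 18.5, 17.3, 16.5 and 10.1 CPM, and the 4 PRMT5/TCL1 spleens at 8.60, 2.98, 8.72 and 6.13. These did not overlap, as held for 375 of the 11550 genes tested (3.25%), and the log2 difference of -1.28 (SE 0.60) had an adjusted p of 0.999. Ighg3 had a log2 difference of 2.93 (SE 1.48, adjusted p = 0.999, 2.27 to 3.71 with 1 library left out), Ighd of 0.04 and Ighm of 0.08.

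Of the B cells not called IgG3, which include cells with no call, the share with an Ighg3 UMI ran from 0.0819 to 39.7% between libraries. It was under 1% in 6 libraries, which were 2 PRMT5 spleens, 2 TCL1 spleens, 1 TCL1 node and 1 PRMT5/TCL1 node. In the fourth PRMT5/TCL1 node 39.7% of such cells held at least 1, and 11.97% when every cell was thinned to 1000 UMIs, a depth that every B cell and T cell reached. The second PRMT5/TCL1 spleen, which came from the same mouse, held 30.5% (6.11% thinned). The first PRMT5/TCL1 node held 25% against 4.28% in the spleen of its mouse, and the first PRMT5/TCL1 spleen 16.2% against 5.90% in its node. The third spleen of that genotype held 3.01% against 0.275% in the node of its mouse. With TCL1 alone, the first node held 11.3% against 2.54% in the spleen of its mouse, and the second and the third PRMT5 spleen held 8.43 and 6.39%. Over the 7 mice with both tissues the node was higher in 4 and the spleen in 3. T cells held Ighg3 in at most 1.67% (1 of 60 cells), and in at most 0.0605% when thinned. Of the B cells with Ighg3, 635 of 638 in the fourth PRMT5/TCL1 node and all 778 in the first PRMT5/TCL1 spleen also held Ighm, as did 99% and 98.7% of all B cells of these libraries. The median was 1 Ighg3 UMI per such cell in both. Germline transcripts were not told apart from rearranged ones, and the part of doublets was not tested.

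**Figure D4:**
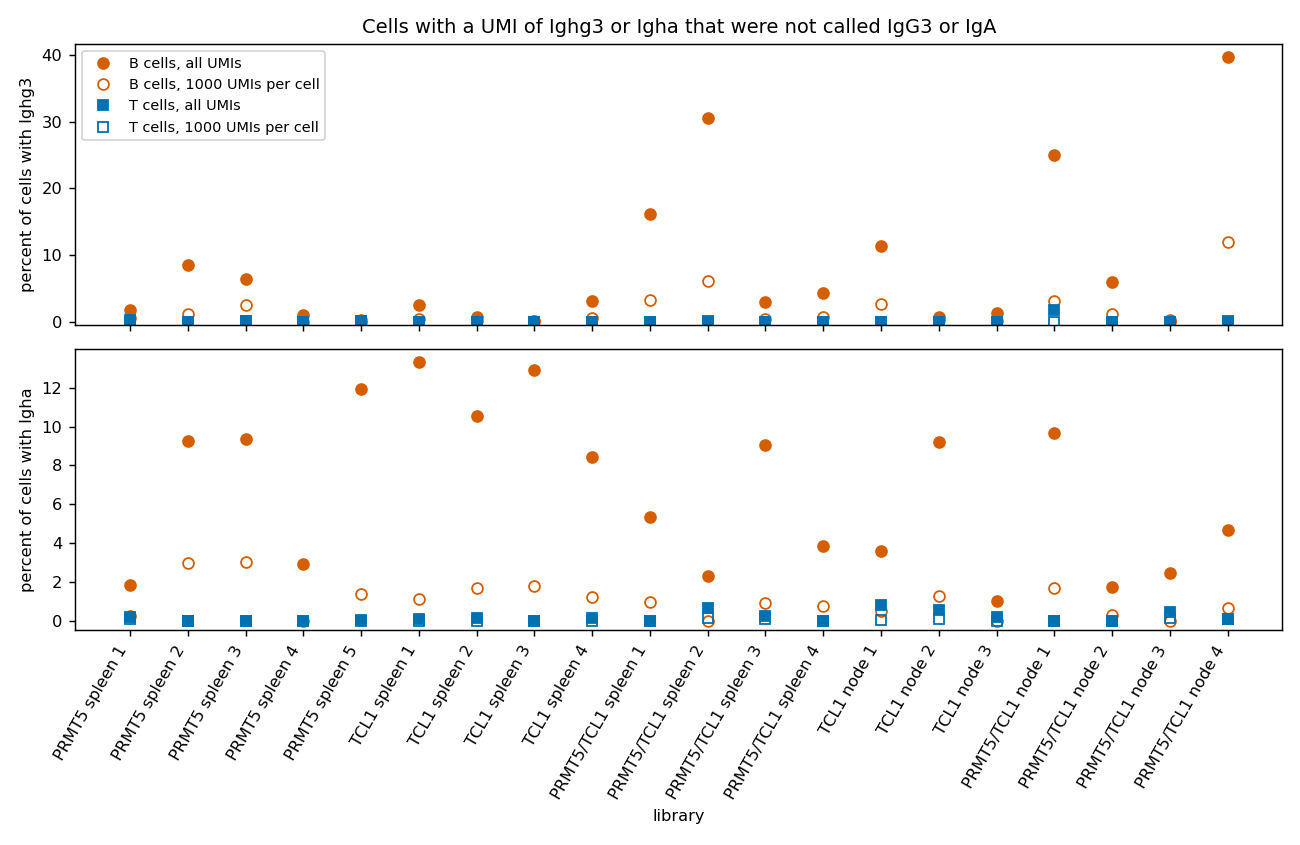
Percent of B cells and of T cells with a UMI of Ighg3 among cells not called IgG3 (top) or of Igha among cells not called IgA (bottom), cells with no call included, by library. Ighg3 reaches 39.7% of B cells in the fourth PRMT5/TCL1 node and at most 1.67% of T cells in any library, and Igha lies between 1.03 and 13.3% of B cells.

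Igha, the gene of mucosal IgA, was found in 1.03 to 13.3% of B cells not called IgA (0 to 3.01% thinned), against 0 to 0.793% of T cells. It stood at 4.91, 23.6, 38.5, 3.02 and 17.2 CPM in the PRMT5 spleens, which overlapped both other groups of spleens. In the nodes it was 4.80, 10.5 and 1.33 CPM with TCL1 and 8.83, 3.06, 4.33 and 9.82 with both. IgA was the call of 17 B cells in all, 14 of them in PRMT5 spleens and 8 of those in the third. Of 7 IgA cells there with an Ighv gene, 4 carried Ighv6-3, the gene that led its IgM cells.

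Ighg1 and Ighe were the scarcest members. Ighg1, the main IgG of T-dependent responses, reached 19 UMIs in the first PRMT5 spleen (2.66 CPM), was 3.04 and 1.27 CPM in the second and the third, and was at most 0.685 CPM elsewhere. Only 3 B cells were called IgG1, all in PRMT5 spleens. Ighe, the gene of the allergic class, was detected in the B cells of 6 libraries, with 7 UMIs in the third PRMT5 spleen, 9 in the fourth PRMT5/TCL1 node (1.11 CPM) and 1 in each of the other 4. Of 25481 B cells with a call over all libraries, 0 were IgE, which by counting error alone allows a share of up to 0.0118%. Whether membrane Ighe transcripts were missed was not tested.

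Plasma cells held far more heavy chain RNA, with Ighm at 5084 to 39771 CPM, and nearly all were IgM. Of 2599, 2576 were led by Ighm, 3 by Ighd and 20 by a switched gene. In PRMT5 spleens 48 of 52, 18 of 20, 60 of 61, 9 of 9 and 30 of 31 plasma cells were IgM, and in TCL1 spleens 445 of 445, 3 of 3, 29 of 31 and 41 of 42. The larger PRMT5/TCL1 spleens had 175 of 175 and 593 of 594, and the other 2 had 7 of 7 and 1 of 1. In the nodes with TCL1, 108 of 109, 220 of 220 and 389 of 394 were IgM. The third PRMT5/TCL1 node held 6 IgM cells of 10, with 2 IgG2c, 1 IgA and 1 IgD, and the others 7 of 7, 132 of 132 and 255 of 256. The exception in the last was an IgE cell, which held 496 of the 497 Ighe UMIs among the plasma cells of that node. Among plasma IgM cells with an Ighv gene, Ighv1-52 was found in 593 of 593 in PRMT5/TCL1 spleen 4. Ighv1-55 was found in 445 of 445 in TCL1 spleen 1, and Ighv12-3 in 220 of 220 and 389 of 389 in TCL1 nodes 2 and 3. Each gene also led the IgM B cells of its library. The leading gene differed between the gates in PRMT5 spleens 1, 2 and 3, TCL1 spleen 3 and PRMT5/TCL1 spleen 3. Whether plasma and B cells of a library share a clone was not tested.

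Exact permutation tests over libraries with at least 20 plasma cells were also run for IgM and IgA shares, and none of the 10 could reach 0.05, since the smallest possible p ran from 0.0571 to 0.25. They therefore say nothing of whether the groups differed (adjusted p = 1 for all 10). The largest groups were 94.4% ± 3.88 (SD, n = 4) IgM in PRMT5 and 97.1% ± 3.26 (n = 3) in TCL1 spleens (exact permutation p = 0.343). Shares of the plasma gate show isotype among cells kept by a Jchain limit, and Jchain is itself a partner of IgM and IgA.

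Both tissues came from 7 mice, 3 with TCL1 and 4 with both transgenes. In each of the 7, the node and the spleen had the same leading Ighv gene among IgM cells. IgD calls were more frequent in the node of 6 of 7 mice, while Ighd UMIs per 100 Ighm UMIs were higher in the node of 3 and in the spleen of 4. IgD calls went from 0 to 5.63%, 0.213 to 0.696% and 0.661 to 0.201% in the TCL1 mice, the last being the reverse case. In the double transgenic mice they went from 0.0915 to 0.756%, 0.404 to 2.14%, 0.671 to 2.68% and 0 to 0.266%. The mean was 0.292% ± 0.291 in spleens and 1.77% ± 1.95 (SD, n = 7) in nodes, a difference of 1.47 points (exact paired permutation p = 0.0469, adjusted p = 0.234). It was 0.783 without the mouse of the first TCL1 node and 0.163 with a leading gene over 80%. The IgM share was lower in the node by 1.56 points on average, in 6 of 7 mice (difference -1.56, exact paired permutation p = 0.0312, adjusted p = 0.234). That difference was -0.877 without the same mouse, -0.16 with a leading gene over 80% and -7.79 over all B-gate cells. Neither passed after adjustment, and the smallest p that 7 pairs allow is 0.0156. In summed UMIs, Ighd was higher in 5 of 7 nodes, by 15.9 CPM on average (SD 40.5), Ighg3 in 3 and Igha in 2. Ighg2b was higher in the node of 6 mice, by 8.70 CPM in the third TCL1 node, where 1 cell held nearly all of it, and by 0.0506 to 1.37 in the others, and Ighg2c in 4 with none lower. These directions rest on few molecules, since the other nodes held 1 to 5 Ighg2b UMIs and no node over 6 of Ighg2c. The second TCL1 node held 1 Ighg2b UMI against 2 in the spleen of its mouse, which had more B-cell UMIs.

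**Figure D5:**
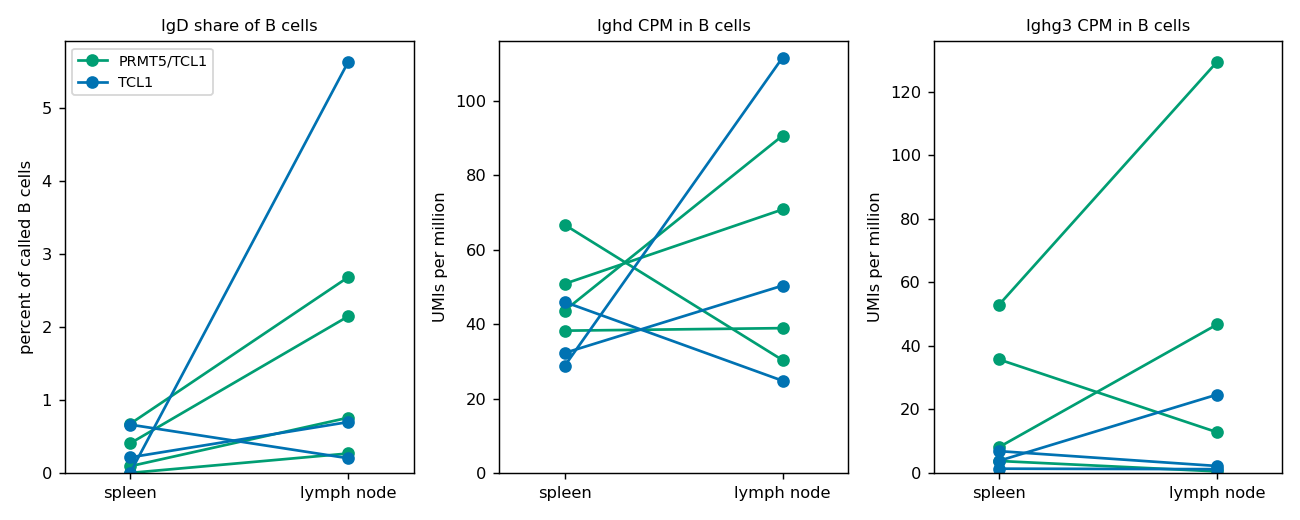
Values in the spleen and the lymph node of each of the 7 mice with both tissues, joined by a line per mouse and coloured by genotype. The IgD share of B cells is higher in the node of 6 mice, while the levels of the other measures move both ways.

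Over all genes, edgeR with the mouse as a block called 1 of 10973 genes between nodes and spleens (0.00911%), Fam177a, with 1231 at an unadjusted p under 0.05. Igha (log2 difference -0.82, SE 0.49, adjusted p = 0.575), Ighg3 (0.39), Ighd (0.35, SE 0.31, adjusted p = 0.725) and Ighm (0.12) were not called. Between PRMT5/TCL1 and TCL1 nodes, 0 of 10902 genes were called (0%), with 738 at an unadjusted p under 0.05 and 64 called by DESeq2. Ighg3 averaged 47.4 CPM ± 58.2 (SD, n = 4) and 9.35 ± 13.3 (n = 3) there (log2 difference 3.04, SE 1.52, adjusted p = 0.790). It was 1.48 without the fourth PRMT5/TCL1 node and 4.84 without the first TCL1 node. The IgM share of B cells was 98.4% ± 1.00 (n = 4) against 97.8% ± 2.95 (n = 3), a difference of 0.632 points (exact permutation p = 0.8, smallest possible 0.0571). The test of whether the difference between tissues differed by genotype called 0 of 11917 genes (0%), with 233 at an unadjusted p under 0.05 and 1 called by DESeq2.

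The machinery of switching was read from 5 lists with 74 genes, 73 of them in the tables, covering the enzymes of switching, its signals, light chains with receptor partners and secretion, RNA processing and Fc receptors. In edgeR no gene of any list was called in any of the 6 comparisons, in which 0 to 0.026% of all genes were called. Between PRMT5 and TCL1 spleens, the 25 switching enzymes had a median log2 difference of 0.00 against 0.01 over all genes, with 1 gene at an unadjusted p under 0.05, which held for 16.9% of all genes. The 21 genes of switching signals had a median of 0.54 with 5 such genes, and the 17 of light chains, partners and secretion -0.67 with 5. The 5 RNA processing genes had 0.32 with 1 and the 4 Fc receptors tested -0.19 with 2. Between PRMT5/TCL1 and TCL1 spleens these medians were 0.11, 0.16, -0.67, 0.18 and 0.60, against 0.00 over all genes.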

How the data were processed

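Cells from spleens and lymph nodes were run on 10x 3′ v2 chips and sequenced on a NextSeq 500. The authors deposited unfiltered UMI counts per gene and barcode. The submitters' processing notes name Cell Ranger 2.0.1, Seurat 2.2.1 and GRCm38, and the matrix headers Cell Ranger 3.1.0. Intronic reads and multimapping were not given in the sources used here.

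From these counts, barcodes were kept whose UMI total passed the 99th percentile of the 3000 largest divided by 10, if 200 genes or more were detected and mitochondrial UMIs did not exceed 10%. Doublets were removed with Scrublet in scanpy 1.11.5. Where its automatic threshold marked under 0.5% of cells, in 14 of 20 libraries, the expected share (0.8% per 1000 cells) with the highest scores was removed. An isotype call needed at least 3 UMIs of the 8 genes and 1 leading gene. In a 3′ library each molecule gives 1 UMI whatever its length, so genes were compared within a cell without length scaling.

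UMIs of B-gate cells were summed per library and tested with edgeR 4.0.16 (quasi-likelihood test, TMM, filterByExpr, Benjamini-Hochberg at 0.05), with DESeq2 1.42.0 as an alternative, in R 4.3.3. Shares over libraries with at least 20 called cells were tested with exact two-sided permutation tests in scipy 1.17.1, adjusted over 10 tests per gate. The p-values measure the spread between libraries, 1 per mouse and tissue. Nodes and spleens were paired by mouse, as the titles give it, and the deviations of the 2 tissues of a mouse correlated at 0.269 to 0.668 in 7 of 7 pairs. The edgeR script, tested on simulated data from the PRMT5 against TCL1 comparison, was used as it stood. Alternatives changed the cell threshold, doublets, denominator, depth, call rule, scaling, filter, Jchain limit and libraries used.

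Named were the 8 members in each comparison, pathway genes called over all genes (at most 6 per comparison), and for Ighm and Ighd the 3 genes of highest Pearson r. Genes called where 5 or fewer were called are also named. Fcer2a, Cr2 and Zfp318 were named outside this rule. The members, gates and lists were chosen with earlier results of these data known. The RefSeq promoter table held none of the 8 genes. A gene that the naming rule also covers is not reported here.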

Additional observations from a re-analysis of the deposited data

Results flagged for a closer look

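In groups of 4 or 5 libraries, the library farthest from the others was compared with the spread of its group by Dixon's ratio. Of 73 groups examined, 12 held a library past the 95% limit. In 6 of these all other libraries were at 0, where any value passes the limit, so the 12 cannot be set against the about 1 in 20 groups that chance gives. Of the remaining 6, 3 belong to the B cells of PRMT5 spleens. Ighg3 was 286.6 CPM in the first spleen against 0.619 to 19.6 in the others, with 98.5% of its UMIs in 1 cell. Ighg2b was 1925 CPM in the second against 0 to 200. The IgD share was 15.86% in the first against 0 to 3.18%.

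A further 3 belong to the plasma cells of PRMT5 spleens. Ighd was 97.75 CPM in the second spleen against 0 to 6.11, with all 55 UMIs in 1 of 20 plasma cells. In the first spleen Ighg3 was 764.6 CPM against 1.78 to 10.2 and Ighg2c 1251 CPM against 0 to 122. Single cells held 51.6 and 46.5% of these Ighg3 UMIs, and 1 cell held 99.9% of these Ighg2c UMIs.

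The other 6 lie in groups otherwise at 0, and 5 of them rest on 1 to 9 UMIs. In B cells, Ighg2c was 0.1741 CPM in the third TCL1 spleen and 0.1277 in the fourth PRMT5/TCL1 spleen. Ighe was 0.02841 CPM in the second TCL1 spleen, 0.0671 in the third PRMT5/TCL1 spleen and 1.105 in the fourth PRMT5/TCL1 node. The switched share was 0.07979% in the second TCL1 spleen, from 3 of 3760 cells.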

How the results depend on the processing

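Of 380 alternative values for shares and counts of genes called, 333 kept their direction or count, 13 reversed and 34, all counts, moved past 1.5 times. Of 448 values for single genes and the switched share, 405 stayed the same and 27 reversed, with 11 gaining a call. The other 5, all of the switched share, moved by more than the SD of their group. The cause of each change was not tested. With the percentage-point differences given in order of setting, the IgM share of B cells between PRMT5/TCL1 and TCL1 spleens was -0.01013 with at least 10 heavy chain UMIs, -0.04857 with a leading gene over 80% and -0.7876 when thinned, and the IgD share 0.01013 and 0.02503 under the first pair. The IgM share between nodes of these genotypes was -1.353 over all B-gate cells. In plasma cells, nodes against spleens, it was -0.7367 when thinned and -0.1281 with a Jchain limit of 10. The log2 difference of Igha between PRMT5 and TCL1 spleens was 0.003414 at a 500 UMI threshold and 0.0004134 when scaled without immunoglobulin genes, and that of Ighd between nodes -0.04528 with the Jchain limit of 10.

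DESeq2 called 666, 21, 101, 64, 271 and 1 genes in the comparisons of PRMT5 against TCL1, PRMT5/TCL1 against TCL1 and against PRMT5 spleens, of nodes by genotype, of nodes against spleens and of tissue by genotype. With all genes of at least 1 UMI, 93 were called between nodes and spleens and 5 for tissue by genotype, and with the Jchain limit of 10, 2 between nodes and spleens.

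Replicate numbers of the labels were not shown to pair mice, since same-numbered libraries correlated at -0.160 to 0.278. With this number as a replicate block, 41 genes were called between PRMT5 and TCL1 spleens, Ighg2b (adjusted p = 0.0470) and Ighg2c (adjusted p = 0.0288) included, 0 between PRMT5/TCL1 and TCL1 and 1, Ighg2c (adjusted p = 0.0439), between PRMT5/TCL1 and PRMT5. Ighg2b and Ighg2c passed the filter on low counts only through PRMT5 spleens, so these calls give no support for a group difference. Under the block Ighm between nodes was -0.6728. Without the mouse as a block 1 gene was called between tissues.

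Leaving out 1 library or mouse at a time gave, for IgM shares, -0.000495 to 0.3422 points between PRMT5/TCL1 and TCL1 spleens, -1.063 to 1.616 between nodes and -0.4587 to 0.556 in plasma cells between tissues, and for IgD shares -0.3422 to 0.0005021 and -1.7 to 1.012 in the first and second of these. Genes called ran from 1 to 309 (309 without the fourth PRMT5 spleen), 0 to 0, 0 to 3, 0 to 11 (11 without the first TCL1 node) and 0 to 54 (54 without the mouse of the fourth PRMT5/TCL1 spleen), in the order above. Log2 differences that changed sign ran from -0.4968 to 0.2452 for Igha between PRMT5 and TCL1, -0.1718 to 0.4133 for Ighd and -0.1744 to 0.4285 for Ighm between PRMT5/TCL1 and TCL1, and -1.982 to 1.561 for Ighg3 between PRMT5/TCL1 and PRMT5 spleens. Between nodes they ran from -0.1865 to 1.463 for Igha, -0.3352 to 0.5996 for Ighd and -0.6536 to 0.2459 for Ighm, and between tissues from -0.1254 to 0.8249 for Ighg3 and -0.09731 to 0.2697 for Ighm (also -0.05205 without the mouse of PRMT5/TCL1 spleen 2). For plasma cells, 12 such values could not be had with fewer than 2 libraries in a group.

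Settings for the switched share were added after seeing the data. Thinned, it was 7.393% in PRMT5 spleens, 1.129% in PRMT5/TCL1 spleens and 0.1217% in TCL1 nodes, and it was 0% in PRMT5/TCL1 nodes with at least 10 UMIs or a leading gene over 80%. Depth limited calls in cells of few heavy chain UMIs, and libraries under 20 plasma cells gave no share for a test.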
